A study of Mus musculus with 6 samples.

Results

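*Klf9*, *Hr* and *Bcl3* are genes that thyroid hormone is known to induce, and their transcripts were followed here in single cells of regenerating mouse muscle from control and hypothyroid mice. The members were the rows with these 3 gene symbols among 12436 listed genes, and all 3 were found. *Klf9* (ENSMUSG00000033863.3, mm39 chr19:23118590-23145499) gave 37418 unique molecular identifiers (UMIs, each the tag of a single captured transcript) in 6145 of 11207 cells. *Hr* (ENSMUSG00000022096.15, chr14:70789652-70810989) gave 615 UMIs in 489 cells, and *Bcl3* (ENSMUSG00000053175.18, chr7:19542387-19556696) gave 3782 UMIs in 2339 cells.

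The tibialis anterior muscle (TAM) of male *Pax7*-Fucci mice was examined by 3′ single-cell RNA sequencing, uninjured (day 0) or at 5 or 14 days after injury (dpi). The mice were 3 to 5 months old, carried the Fucci2aR cell cycle reporter at the *Gt(ROSA)26Sor* locus and lacked Cre, the recombinase that switches the reporter on. Hypothyroid mice ate an iodine-deficient diet with 0.15% propylthiouracil, a blocker of thyroid hormone synthesis, and control mice ate a matched diet. Injury was an injection of cardiotoxin (CTX, 50 μg/ml), a snake venom toxin that destroys fibers, into the right TAM. Each of the 6 groups, 2 diets by 3 days, was a single library made from 3 pooled mice, so no difference had a replicate check, and no test between conditions could be made. All intervals are 95% intervals that cover counting error only. The labels give the day as the batch, so day and batch cannot be told apart, and both diets of a day share that label. Each diet at a day was its own library, so effects of diet and of library cannot be told apart.

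Thyroid hormone (T3) enters cells through membrane transporters and binds nuclear receptors encoded by *Thra* and *Thrb*. The receptors sit on DNA as partners of retinoid X receptors, hold corepressors when T3 is absent and recruit coactivators when it is bound. KLF9 is a Krüppel-like zinc finger transcription factor whose gene also responds to glucocorticoids. Hairless (HR) is a nuclear corepressor of the KDM3 histone demethylase family that binds thyroid hormone receptors. BCL3 is a nuclear member of the IκB family that works with the p50 and p52 subunits of NF-κB.

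The classical thyroid hormone response element is a direct repeat of a 6-base arm with a spacer of 4 bases. Because the members are known targets, the 20001 bases centered on the canonical transcription start of each gene were searched in GRCm39, the assembly also named mm39, with GENCODE gene models. The letters searched, on both strands, were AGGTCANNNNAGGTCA, AGGTGANNNNAGGTCA, AGGTCANNNNAGGTGA and AGGTGANNNNAGGTGA. The window of *Klf9* held 1 match, at chr19:23114827-23114842 on the plus strand, 3360 bases before its start, and it is shown with 12 bases on each side and the arms in capitals:
*Klf9* element, chr19:23114815-23114854: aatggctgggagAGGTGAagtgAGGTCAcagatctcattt
The windows of *Hr* and *Bcl3* held no match of these letters. Among the same windows of 11891 listed protein-coding genes, 3.07% held a match. A match is a description of the sequence, and no binding was measured here.

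The files held 20269 cell columns in runs of alphabetically ordered barcodes, and the first run of each file, 11207 cells in all, was used. First runs held 528 to 3294 cells and 2283739 to 23496529 UMIs, and 12 barcodes stood in more than 1 first run. Of the first-run cells, 528 of the control day 5 library and 1152 of the hypothyroid day 14 library also stood, with identical values, in the file of another condition, so results that rest on these libraries are given without those cells where they moved. Whether a first run belongs to the condition on its label could not be checked, and no member was deleted or silenced by design. Cells were gated on marker lists, which placed 8399 cells and left 2808 unplaced, and 1254 cells lay within 1.25 times of a cut. In each gated type all measured markers were higher than in the other cells, by at least 6.86-fold in fibro-adipogenic progenitor (FAP)-like cells and at least 3.56-fold in myogenic progenitor-like cells. These are the markers that the gate used, so this is no separate check of the type names.

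*Klf9* was found in every stromal and myogenic type and was lower in lymphoid, dendritic-like and monocyte/macrophage-like cells. Levels are UMIs of the gene per 1000000 UMIs of all cells of a type in a library (CPM). In control muscle at 14 dpi, *Klf9* stood at 873 CPM in glial-like cells (interval 721 to 1048), 835 in FAP-like cells (817 to 854) and 796 in mural-like cells (730.0 to 867), 3 neighbors whose intervals overlapped. Endothelial-like cells followed at 598 CPM (562 to 635), clear of the types on either side. Myogenic progenitor-like cells, with 407 CPM (336 to 489), and myocyte-like cells, with 406 CPM (339 to 482), could not be separated. Erythroid-like cells had 344 CPM (259.6 to 446) on 56 UMIs in 36 cells, overlapping both. Monocyte/macrophage-like cells had 75.3 CPM (46.0 to 116) and T/NK-like cells 67.8 (35.0 to 118).

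At 5 dpi the order in control muscle was different, with mural-like cells highest at 1288 CPM (1082 to 1522), then endothelial-like cells at 775 (712 to 842), FAP-like cells at 509 (491 to 528) and myogenic progenitor-like cells at 367 (329 to 409). Immune types stood below these. Granulocyte-like cells had 128 CPM (58.3 to 242) on 9 UMIs in 17 cells. Monocyte/macrophage-like cells had 58.7 CPM, T/NK-like cells 19.2, B-like cells 18.4 on a single UMI and dendritic-like cells 12.3 on 5 UMIs.

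RNA released from other cells can add UMIs to any cell, so the FAP markers were summed in each type as a yardstick. In T/NK-like cells these 8 genes stood at 0.183% to 1.69% of their FAP-like level in the same library, and *Klf9* stood at 1.37% to 8.12% of its FAP-like level. In monocyte/macrophage-like cells the markers stood at 0.874% to 2.33% and *Klf9* at 8.33% to 11.5%. *Klf9* was above the markers in all 5 T/NK-like and all 4 monocyte/macrophage-like pools. The T/NK-like pool of control muscle at day 0 held 1 *Klf9* UMI. The gate drops cells in which the markers of another type come close, which can lower this yardstick. FAP markers also do not follow RNA released from other types. In the erythroid-like pool above, the markers stood at 17.5% and *Klf9* at 41.2%, and in the granulocyte-like pool at 6.43% and 25.0%. The part of released RNA in these levels was not tested.

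**Figure D1:**
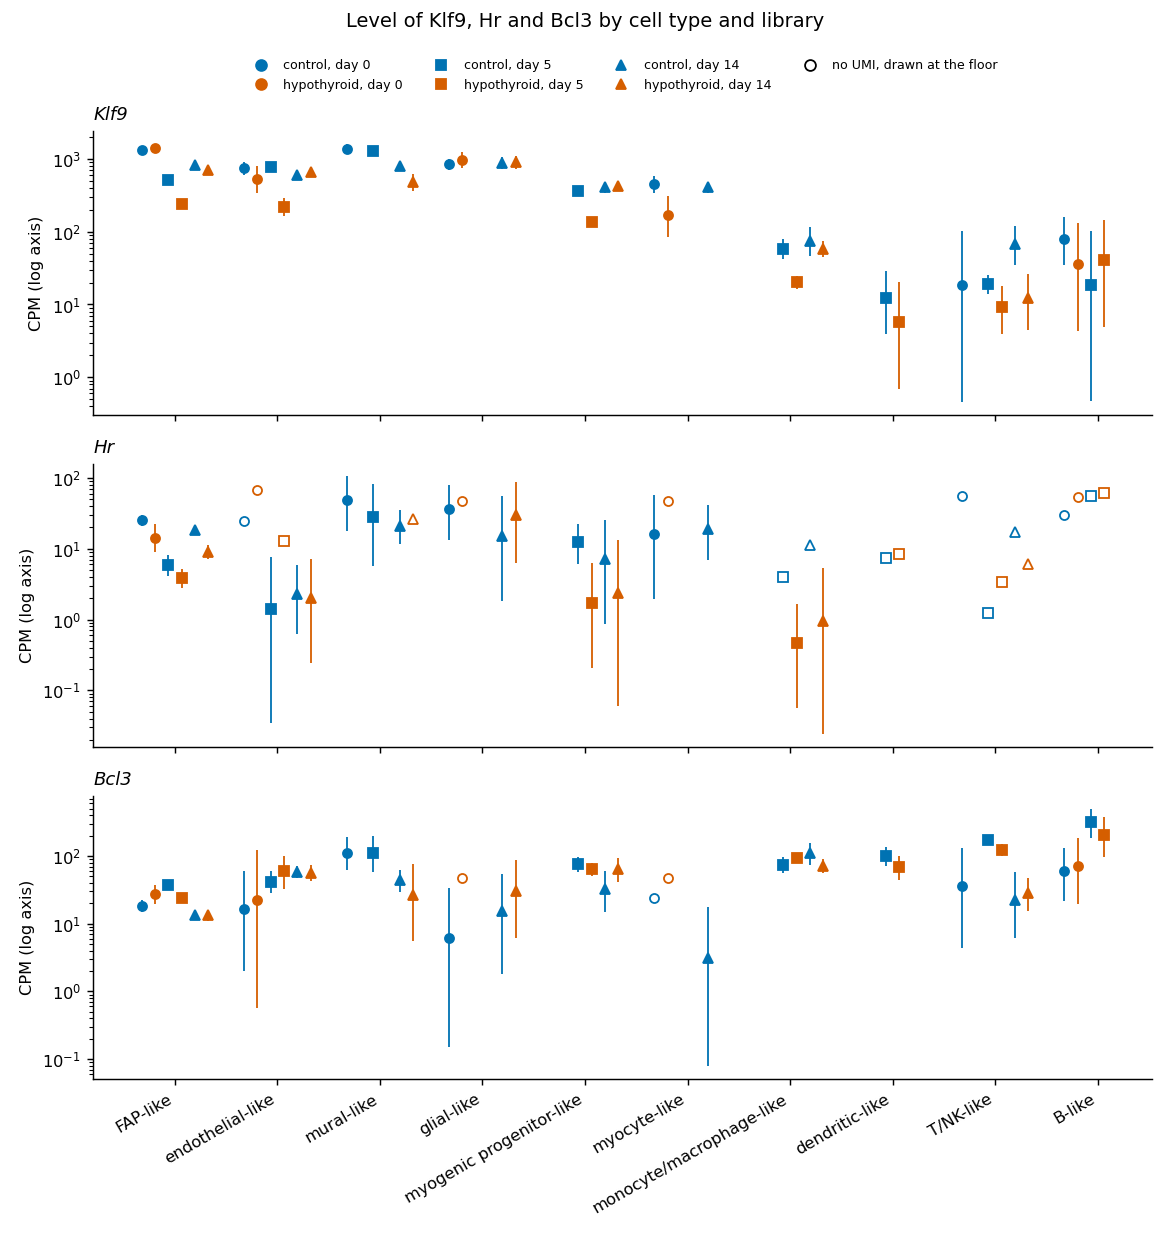
Level of *Klf9*, *Hr* and *Bcl3* (CPM, log axis) in gated cell types, for pools of at least 15 cells in the 6 libraries (the erythroid-like and granulocyte-like pools are not drawn; blue, control; orange, hypothyroid; circles, squares and triangles for day 0, 5 and 14). Bars are exact Poisson 95% intervals, and open symbols are pools with no UMI, drawn at the floor of 3 UMIs. *Klf9* is high in stromal types and lower in the immune types drawn, whereas *Bcl3* reaches its highest levels in T/NK-like and B-like cells at 5 dpi.

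In FAP-like cells, *Klf9* was lower at 5 dpi than at day 0 in both diets, and the hypothyroid library had the lower level of the pair. Control FAP-like cells had 1329 CPM at day 0, 509 at 5 dpi and 835 at 14 dpi. Hypothyroid FAP-like cells had 1422 CPM at day 0, 239 at 5 dpi and 704 at 14 dpi. These levels rest on 6220, 2852 and 8067 UMIs in 791, 388 and 1549 control cells, and on 2079, 2706 and 5699 UMIs in 288, 771 and 856 hypothyroid cells.

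Of the 3 days, the ratio of the diets lay farthest from 1 at 5 dpi, where the hypothyroid level was 0.469 times the control level (interval 0.445 to 0.495). Among all genes tested in these 2 pools, the median ratio was 0.791 and 11.3% were lower by at least 2-fold, as was *Klf9* and neither *Hr* nor *Bcl3*. A ratio as low as that of *Klf9* was seen for 8.67% of genes. The ratio was short of 2-fold with the mean of CPM (0.505), all cell columns (0.541), thinned shares (0.576) and relative to the all-gene median (0.593). At 14 dpi the ratio was 0.843 (0.815 to 0.873), beside an all-gene median of 0.910 (41.2% of genes were as low), and without the cells that also stand in another file it was 0.863.

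At day 0 the ratio for *Klf9* was 1.07 (1.02 to 1.13), and its direction depended on the measure. The mean over cells of CPM gave 0.953, and the mean of log2(CPM + 1) gave 0.493. When each cell was thinned to 1000 UMIs, 62.4% of 774 control cells and 56.7% of 284 hypothyroid cells held a *Klf9* UMI. Without thinning the shares were 91.5% and 81.3%. Per cell, the hypothyroid quartiles were wider, from 278 to 1829.5 CPM around a median of 938, against 549 to 1785 around 1077 in control.

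Thinned shares at 5 dpi were 32.8% of 384 control cells (28.1% to 37.8%) and 18.9% of 746 hypothyroid cells (16.2% to 21.9%), and at 14 dpi 49.6% and 46.0%. Without thinning they were 81.7% and 70.3% at 5 dpi, and 85.5% and 85.6% at 14 dpi. As a reference, T/NK-like cells thinned the same way gave 2.36% at 5 dpi in control and 0 of 179 cells in hypothyroid muscle, which allows a share of up to 2.04% (Clopper-Pearson), with median depths of 2891 and 3598 UMIs. Median depths of FAP-like cells at 5 dpi were 13027.5 and 13719 UMIs. At 14 dpi they were 5939 in control and 9324.5 in hypothyroid muscle.

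Between days, *Klf9* in FAP-like cells went in the same direction in both diets. From day 0 to 5 dpi it was 0.383-fold in control (0.366 to 0.401) and 0.168-fold in hypothyroid muscle (0.159 to 0.178), and 12.7% and 21.1% of genes were lower by at least 2-fold in these pairs. From 5 to 14 dpi it was 1.64-fold (1.57 to 1.71) and 2.95-fold (2.82 to 3.09), where 9.81% and 11.9% of genes were higher by at least 2-fold. Using all cell columns of each file, which mixes the first runs with columns of unknown condition, left the directions but moved the steps to 0.713 and 0.382 and to 1.25 and 1.85. As thinned shares of cells, the first steps were 0.526 and 0.333.

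**Figure D2:**
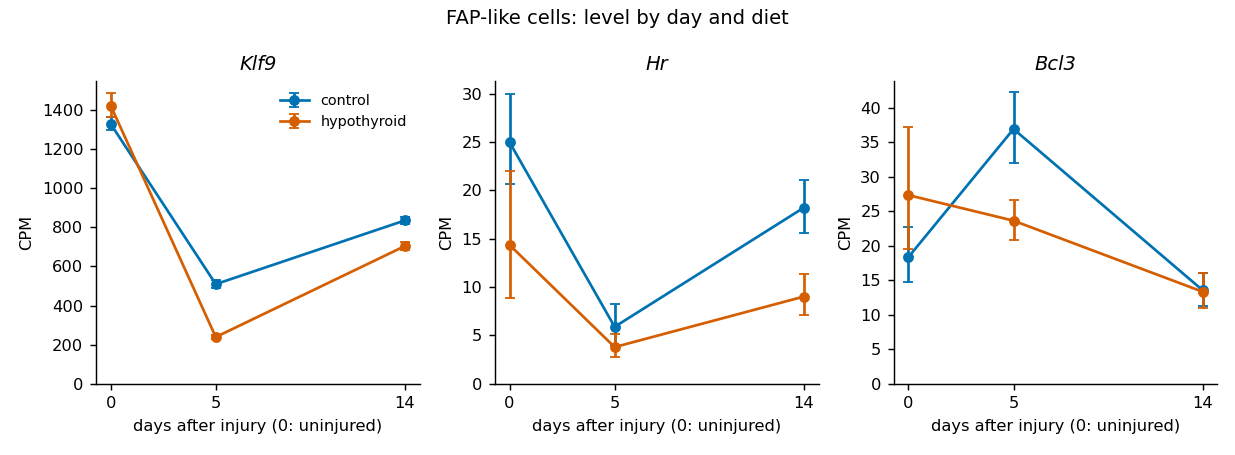
Level (CPM, linear axis from 0) of each gene in FAP-like cells by day for control (blue) and hypothyroid (orange) libraries, with 1 library per point and exact Poisson 95% intervals. *Klf9* is lowest at 5 dpi in both diets, *Hr* is lower in hypothyroid than in control cells at each day, and *Bcl3* at 5 dpi stands at 37.0 CPM in control and 23.7 in hypothyroid cells.

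The lower *Klf9* level at 5 dpi was present in each FAP-like state examined. These states were chosen after values were seen. Cells with a UMI of *Pi16*, a marker of universal fibroblast progenitors, had 638 CPM in control and 273 in hypothyroid muscle, a ratio of 0.428 (0.398 to 0.460). Cells with *Smoc2* and no *Pi16* had 366 and 212 CPM (0.579, 0.532 to 0.631). Cells with *Cthrc1*, *Tnc* or *Lrrc15*, genes of activated matrix-producing fibroblasts, had 493 and 231 CPM (0.468, 0.443 to 0.494). Cycling cells, with a UMI of *Mki67*, *Top2a*, *Cenpf* or *Cdk1*, had 367 and 193 CPM (0.528, 0.483 to 0.577), and non-cycling cells had 675 and 271 CPM (0.402, 0.376 to 0.429). States overlap, except cycling against non-cycling and *Pi16* against *Smoc2* alone, and a state is set by detected UMIs, so it depends on depth.

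Outside FAP-like cells, *Klf9* was lower in hypothyroid than in control muscle at 5 dpi in every type with enough UMIs for a ratio (at least 20 in the pair, and 15 cells in each pool). All 5 types, FAP-like cells included, passed 2-fold, with ratios of 0.284 to 0.476, and the share of all genes that did so was 11.3% in FAP-like, 12.7% in endothelial-like, 12.3% in myogenic progenitor-like, 11.0% in monocyte/macrophage-like and 11.2% in T/NK-like cells. The types come from the same 2 libraries and are not separate replicates.

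Endothelial-like cells had 775 CPM in control and 219.9 in hypothyroid muscle at 5 dpi, a ratio of 0.284 (0.209 to 0.377) that rests on 52 UMIs in 31 hypothyroid cells. This ratio was 0.894 with all cell columns and 0.675 as thinned shares. Myogenic progenitor-like cells had 367 and 137 CPM (0.374, 0.308 to 0.453), a ratio of 0.569 with all cell columns. Monocyte/macrophage-like cells had 58.7 and 20.1 CPM (0.342, 0.236 to 0.504), and T/NK-like cells had 19.2 and 9.13 CPM, where the interval of the ratio, 0.194 to 1.02, held 1. With graph clusters in place of the gate, the T/NK-like ratio was 1.19. A ratio as low was seen for 2.85%, 4.11%, 2.70% and 9.06% of genes in these 4 types, whose all-gene medians were 0.883, 0.800, 0.845 and 0.814.

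Monocyte/macrophage-like cells with *C1qa*, *C1qb* or *C1qc*, complement genes of mature macrophages, had 50.7 CPM of *Klf9* in control and 20.5 in hypothyroid muscle at 5 dpi (0.404, 0.267 to 0.626). The cells without them were few, 23 and 16, and held 12 and 0 UMIs.

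At 14 dpi the ratios of 6 types ran from 0.600 to 1.12. Mural-like cells had 796 CPM in control and 478 in hypothyroid muscle (0.600, 0.445 to 0.795). Endothelial-like cells had 598 and 669 CPM, a ratio of 1.12 (1.01 to 1.23) that turned to 0.680 without the 148 of 201 hypothyroid cells that also stand in another file, to 0.977 with the mean of CPM, to 0.864 with the mean log and to 0.908 with graph clusters. The ratios in glial-like (1.03), myogenic progenitor-like (1.03) and monocyte/macrophage-like cells (0.779) had intervals that held 1. At day 0, myocyte-like cells had 456 CPM in control and 172 in hypothyroid muscle (0.377, 0.178 to 0.726) on 57 and 11 UMIs, and 18.5% of genes in that pair were lower by at least 2-fold. The ratio was short of 2-fold with the mean of CPM (0.548) and graph clusters (0.699).

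From 5 to 14 dpi in hypothyroid muscle, *Klf9* was higher by at least 2-fold in all 4 types with a ratio, FAP-like (2.95), endothelial-like (3.04), myogenic progenitor-like (3.04) and monocyte/macrophage-like (2.92). The shares of all genes past that fold were 11.9%, 15.7%, 11.4% and 8.11%. With all cell columns these steps were 1.85, 1.15, 1.91 and 2.33, and the endothelial-like step was 1.85 without cells that also stand in another file, 1.25 with the mean log and 1.096 as thinned shares. In control muscle the same step was 1.64 in FAP-like cells, 0.771 in endothelial-like cells (0.695 to 0.856), 0.618 in mural-like cells (0.512 to 0.751) and 1.11 in myogenic progenitor-like and 1.28 in monocyte/macrophage-like cells, whose intervals held 1. In T/NK-like cells of control muscle it was 3.53 (1.70 to 6.78) on 46 and 12 UMIs, where 9.35% of genes were higher by at least 2-fold, and in hypothyroid muscle these cells held too few UMIs for a ratio.

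**Figure D3:**
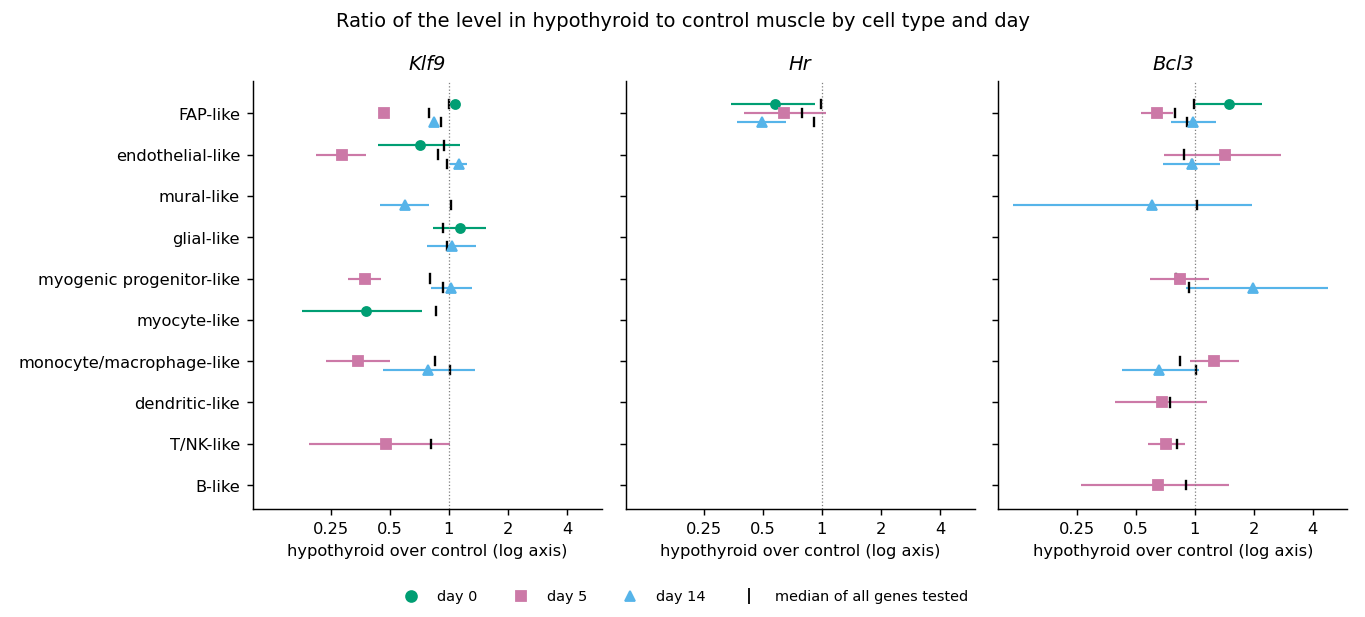
Ratio of the hypothyroid to the control level (log axis) by cell type and day, with exact 95% intervals for counting error. Black ticks mark the median ratio of all genes tested in the same pair of pools. For *Klf9* at 5 dpi (squares), the ratios of 5 types lie between 0.284 and 0.476 and left of their ticks. *Hr* had enough UMIs for a ratio in FAP-like cells only.

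*Hr* was sparse and was found mainly in stromal and myogenic cells. FAP-like cells in control muscle had 25.0 CPM at day 0 (117 UMIs), 5.89 at 5 dpi (33 UMIs) and 18.2 at 14 dpi (176 UMIs). In hypothyroid muscle they had 14.4 CPM (21 UMIs), 3.80 (43 UMIs) and 9.02 (73 UMIs), lower at each of the 3 days. Ratios were 0.575 at day 0 (0.343 to 0.920), 0.644 at 5 dpi (0.400 to 1.05) and 0.495 at 14 dpi (0.372 to 0.654). The last passed 2-fold, where 8.31% of genes were lower by as much, and those of day 0 (4.27% of genes past 2-fold lower) and 5 dpi did not. Over the alternatives the ratio at 14 dpi ran from 0.453 to 0.864, the last with the mean log, and 6 of them fell short of 2-fold. Ratios as low were seen for 7.16%, 29.0% and 8.14% of genes.

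Between days, *Hr* in FAP-like cells went in the same direction as *Klf9*. It was 0.236-fold from day 0 to 5 dpi in control (0.155 to 0.349) and 0.264-fold in hypothyroid muscle (0.153 to 0.469). From 5 to 14 dpi it was 3.09-fold (2.12 to 4.63) and 2.38-fold (1.61 to 3.55). All 4 steps passed 2-fold, as did 12.7% and 21.1% of genes lower in the first pairs and 9.81% and 11.9% higher in the second. With the mean log none passed it, the steps being 0.738 and 0.949, then 1.24 and 1.13. With all cell columns they were 0.708 and 0.487, then 1.49 and 1.63, and as thinned shares the later steps were 1.25 and 1.55.

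At day 0, FAP-like cells with *Pi16* had 22.1 CPM in control (58 UMIs) of *Hr* and 2.41 in hypothyroid muscle (2 UMIs), a ratio of 0.109 (0.0129 to 0.411). Cells with *Smoc2* and no *Pi16* had 30.6 and 23.6 CPM, with an interval that held 1 (0.374 to 1.47). The difference between these states was not tested. Non-cycling FAP-like cells at 5 dpi had 10.8 CPM of *Hr* in control and 5.30 in hypothyroid muscle (0.489, 0.289 to 0.835), whereas cycling cells had 1.66 and 1.70 CPM on 5 and 8 UMIs.

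Among the other types, *Hr* stood at 48.1 CPM in mural-like (6 UMIs) and 36.3 in glial-like cells (6 UMIs) of the control day 0 library. Myogenic progenitor-like cells at 5 dpi held 11 UMIs in control (12.3 CPM) and 2 in hypothyroid muscle (1.72 CPM), a ratio of 0.140 (0.0151 to 0.641) on fewer UMIs than the minimum of 20. Endothelial-like cells held 1 UMI at 5 dpi and 4 at 14 dpi in control. No *Hr* UMI was found in T/NK-like, B-like or dendritic-like pools, and the 2398457 UMIs of T/NK-like cells in control muscle at 5 dpi allow a level of up to 1.25 CPM. *Hr* shares bases with the annotated genes Gm59695 (105 bases, same strand), Gm62692 and Gm62676 (opposite strand), so a few of its UMIs may belong to these.

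*Bcl3* had its highest levels in lymphoid cells at 5 dpi. In control muscle it stood at 313 CPM in B-like cells (183 to 502, 17 UMIs), 172 in T/NK-like cells (156 to 189), 112 in mural-like cells (57.9 to 196) and 100.5 in dendritic-like cells (72.1 to 136). Monocyte/macrophage-like cells, at 74.7 CPM (56.4 to 96.9), and myogenic progenitor-like cells, at 75.9 (59.0 to 96.3), could not be separated. The few monocyte/macrophage-like cells without C1q genes had 152 CPM on 18 UMIs in 23 cells, nearer to the T/NK-like level. Endothelial-like cells had 41.6 CPM (28.1 to 59.4) and FAP-like cells 37.0 (32.1 to 42.3), which could not be separated.

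In T/NK-like cells *Bcl3* was highest at 5 dpi. T/NK-like cells of control muscle had 36.5 CPM at day 0 on 2 UMIs, 172 at 5 dpi on 412 and 22.6 at 14 dpi on 4. In hypothyroid muscle they had 123 CPM at 5 dpi and 28.4 at 14 dpi. The 14 over 5 dpi ratio was 0.132 in control (0.0357 to 0.339) and 0.231 in hypothyroid muscle (0.122 to 0.404), where 23.2% and 9.11% of genes were lower by at least 2-fold. B-like cells of control muscle rested on 6 UMIs at day 0 (60.0 CPM), 17 at 5 dpi, and 10 in 14 cells at 14 dpi (297 CPM), where no ratio was made.

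In FAP-like cells the course of *Bcl3* differed in value between the diets, and that difference was not tested. Control cells had 18.4, 37.0 and 13.6 CPM at day 0, 5 and 14 dpi, and hypothyroid cells had 27.4, 23.7 and 13.3. The step from day 0 to 5 dpi was 2.01-fold in control (1.56 to 2.62), past 2-fold as were 20.1% of genes, and 0.865-fold in hypothyroid muscle (0.618 to 1.24). The control step fell short of 2-fold under 6 alternatives, the lowest being 1.62 with all cell columns. The ratio of the diets was 1.49 at day 0 (0.997 to 2.19), 0.640 at 5 dpi (0.532 to 0.771) and 0.984 at 14 dpi (0.756 to 1.28). The value at 5 dpi was 0.810 relative to the all-gene median and turned to 1.06 with all cell columns. From 5 to 14 dpi *Bcl3* was 0.367-fold in control, past 2-fold as were 15.2% of genes, and 0.643-fold there with all cell columns.

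In other types at 5 dpi, most intervals of the *Bcl3* ratio held 1. T/NK-like cells had 172 CPM in control and 123 in hypothyroid muscle (0.717, 0.575 to 0.889), beside an all-gene median of 0.814. The cells without *Cd3* genes, which include NK cells, had 194 and 135 CPM (0.698, 0.531 to 0.907). Those with *Cd3* genes, which mark T cells, had 132 and 105 CPM (0.795, 0.533 to 1.16). Monocyte/macrophage-like cells had 74.7 and 93.7 CPM (1.25, 0.947 to 1.69), and those with C1q genes 60.2 and 92.0 CPM (1.53, 1.09 to 2.19). Ratios over the 7 types ran from 0.640 to 1.42, and 5 of the 7 intervals held 1.

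At 14 dpi the *Bcl3* intervals held 1 in all 5 types with a ratio. Monocyte/macrophage-like cells had 109 CPM in control and 72.1 in hypothyroid muscle (0.660, 0.425 to 1.05). Myogenic progenitor-like cells had 32.1 and 63.8 CPM (1.99, 0.907 to 4.80) on 9 and 27 UMIs. *Bcl3* shares 14117 bases with the antisense lncRNA Gm16175, and how strand was used in counting is not given in the sources used here.

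Summed over all first-run cells, *Hr* had the lowest of the 3 ratios at day 0 and 14 dpi, and *Klf9* at 5 dpi. At day 0 the ratios were 0.963 for *Klf9*, 0.485 for *Hr* and 1.28 for *Bcl3*. At 5 dpi they were 0.518, 0.646 and 0.534, where the all-gene median was 0.748. At 14 dpi they were 0.781, 0.493 and 1.02. These sums also carry the share of each cell type, which differs between libraries, with 599 T/NK-like and 388 FAP-like cells in control and 186 and 771 in hypothyroid muscle at 5 dpi.

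Across 36 pools, a cell type in a library each, *Klf9* and *Hr* varied in the same direction (Pearson *r* = 0.73 of log2(CPM + 1)). *Bcl3* went the other way (*r* = -0.44 with *Klf9* and -0.40 with *Hr*). Neither *Klf9* nor *Hr* was among the 5 genes nearest to the other, and how many genes reach such an *r* was not counted. Pools of a library share its depth and released RNA, so these values are descriptions. Among 8841 genes, those most like *Klf9* were *Nfib* (*r* = 0.94), *Mpdz* (0.94), *Arhgef12* (0.93), *Fermt2* (0.92) and *Samd4* (0.92). Among the nearest to *Hr* were Gm42679 (0.82), *Cryab* (0.81), *Olfml2a* (0.81) and *Rhobtb3* (0.80), and the nearest to *Bcl3* were *Macir* (0.90), *Wwp2* (0.86), *Vasp* (0.85), *Nsf* (0.85) and *Kif3b* (0.85).

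Known T3-induced genes, the members among them, were compared in the same FAP-like pools. The list has 18 genes with the 3 members, of which 16 were measured, and its counts and medians include the members. At day 0, 2 of 11 with enough UMIs were higher by at least 2-fold and 1 was lower. The median ratio was 1.07, which is the value of *Klf9* itself, against 0.995 for all genes. *Atp2a1*, the fast-fiber calcium pump SERCA1, was 54.7 CPM in control and 231 in hypothyroid cells (4.22-fold), *Rcan2*, a calcineurin regulator, was 2.35-fold, and *Gpd2*, mitochondrial glycerol-3-phosphate dehydrogenase, was 0.450-fold. In this pair 3.86% of genes were higher and 4.27% were lower by at least 2-fold.

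At 5 dpi, 0 of 10 T3-induced genes were higher and 3 were lower by at least 2-fold, with a median of 0.630 against 0.791, where 3.09% of all genes were higher and 11.3% lower. These 3 were *Klf9*, *Dio3* and *Atp2a1*. *Dio3*, the deiodinase that inactivates T3, stood at 48.6 CPM in control and 4.33 in hypothyroid FAP-like cells (0.0891, 0.0643 to 0.121). *Atp2a1* stood at 11.6 and 1.24 CPM. In the same pair, *Dio2*, the deiodinase that makes T3 and a gene that T3 lowers, stood at 32.1 and 14.1 CPM (0.440, 0.353 to 0.547).

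At 14 dpi, 0 of 14 were higher and 5 were lower, with a median of 0.750 against 0.910, where 1.2% of all genes were higher and 8.31% lower. *Hr* was among them, together with *Atp2a1* (0.225), *Thrsp* (0.265), a lipogenic gene, *Myod1* (0.398) and *Pdk4* (0.409). *Thrsp* rests on 22 UMIs in all and *Myod1* on 36. *Atp2a1* and *Myod1* are also muscle markers used in the gate, and the part of RNA released from muscle fibers or of passenger cells in these values was not tested. Of the list, *Dio1* and *Ucp3* are not analysed here.

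In other types at 5 dpi, the T3-induced list had 2 of 6 genes lower by at least 2-fold in endothelial-like, 4 of 10 in myogenic progenitor-like, 4 of 6 in monocyte/macrophage-like and 4 of 7 in T/NK-like cells, and 0 higher in each. All-gene shares past 2-fold were 12.7%, 12.3%, 11.0% and 11.2% lower, and 4.93%, 3.24%, 7.23% and 3.26% higher. The medians were 0.585, 0.567, 0.445 and 0.476, the last being the value of *Klf9* itself. *Gpd2* was in each of these counts and stood at 0.218 (30 UMIs in all), 0.470, 0.393 and 0.446, beside *Klf9*.

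**Figure D4:**
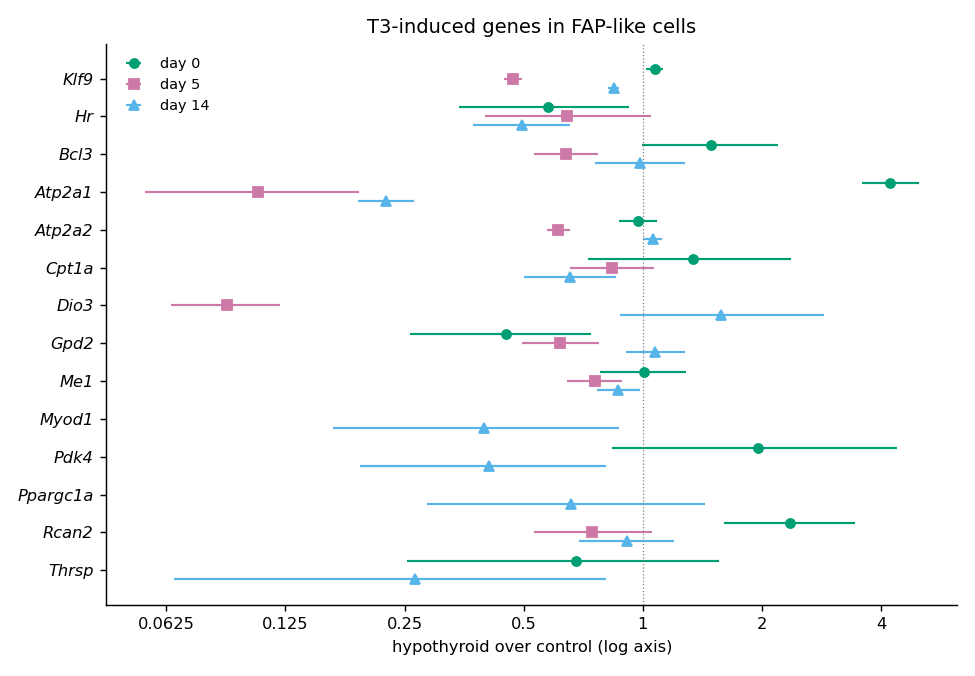
Ratio of the hypothyroid to the control level (log axis) in FAP-like cells for the T3-induced genes with at least 20 UMIs in a pair, at day 0, 5 and 14 dpi, with exact 95% intervals for counting error. At 5 dpi all 10 genes lie below 1, beside an all-gene median of 0.791, which puts most genes tested below 1. The lowest at 5 dpi are *Dio3* (0.0891) and *Atp2a1* (0.107), and at day 0 *Atp2a1* lies at 4.22.

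Receptors, coregulators and transporters of T3 were examined in FAP-like cells. Of 10 genes, 0 of 9 passed 2-fold at day 0, 0 of 9 at 5 dpi and 1 of 10 at 14 dpi. The last was the retinoid X receptor *Rxrg*, on 24 UMIs in all. Of all genes, 3.86% were higher and 4.27% lower by at least 2-fold at day 0, and 3.09% and 11.3% at 5 dpi. At 14 dpi these shares were 1.2% and 8.31%. *Thra* stood at 69.6 CPM in control and 75.3 in hypothyroid cells at day 0, 49.8 and 47.4 at 5 dpi, and 81.3 and 60.6 at 14 dpi (0.745, 0.664 to 0.835). *Thrb* stood at 9.21 and 5.56 CPM at 14 dpi (0.604, 0.412 to 0.873). *Slc16a10*, which carries aromatic amino acids and T3, stood at 24.7 and 39.8 CPM at 14 dpi (1.61, 1.36 to 1.91).

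Of 12 measured KLF genes, 3 were lower by at least 2-fold in hypothyroid FAP-like cells at 5 dpi, *Klf9* among them, as were 11.3% of all genes. The KLF median, *Klf9* included, was 0.711 against an all-gene median of 0.791. *Klf2* stood at 271 and 82.8 CPM (0.305, 0.281 to 0.331) and *Klf16* at 0.458. At 14 dpi *Klf2* (0.479) and *Klf11* (0.388) passed 2-fold, whereas at day 0 *Klf2* (2.07) and *Klf16* (2.43) were higher and *Klf5* (0.263) was lower. Glucocorticoids are another known inducer of *Klf9*. Their response list had 3 of 10 genes lower at 5 dpi, *Per1* (0.359), *Zbtb16* (0.330) and *Dusp1* (0.488), with a median of 0.678 against the same 0.791. At 14 dpi 2 were lower, *Tsc22d3* (0.457) and *Zbtb16* (0.477), where 8.31% of all genes were lower. The part of glucocorticoid signaling in the *Klf9* values was not tested.

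Immediate early and heat shock genes, which respond to dissociation of tissue, were set beside these values. In FAP-like cells their median ratio was 1.32 at day 0, 0.789 at 5 dpi and 0.635 at 14 dpi, against all-gene medians of 0.995, 0.791 and 0.910. At 5 dpi 1 of 11 was higher by at least 2-fold, *Hspa1b*, and 0 were lower, and at 14 dpi 3 were lower, *Jun*, *Fos* and *Hspa1b*. Their part in the values of the members was not tested.

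Relatives and partners of the other 2 members were examined in the same way. Of the 4 KDM3 genes, *Hr* alone passed 2-fold between diets in FAP-like cells, at 14 dpi. There it stood at 0.495, or 0.544 relative to the all-gene median, and 8.31% of all genes were lower by at least 2-fold. *Kdm3a*, *Kdm3b* and *Jmjd1c* stood between 0.998 and 1.03 at that day. The difference between *Hr* and the other KDM3 genes was not tested. Of the IκB and NF-κB genes, the family of *Bcl3*, 0 passed 2-fold in FAP-like cells at day 0 (8 tested), 5 dpi (9) or 14 dpi (9). Their medians were 1.17, 0.868 and 1.16, beside all-gene medians of 0.995, 0.791 and 0.910. At these days 3.86%, 3.09% and 1.2% of all genes were higher, and 4.27%, 11.3% and 8.31% lower, by that fold. In T/NK-like cells at 5 dpi 1 of 10 was lower by at least 2-fold, *Rela* (0.496), as were 11.2% of all genes. The median of the family there was 0.702, beside an all-gene median of 0.814.

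Genes that NF-κB and STAT3 induce split at 5 dpi in FAP-like cells, with 2 of 10 higher and 2 lower by at least 2-fold, beside 3.09% and 11.3% of all genes. The chemokine *Ccl2* stood at 3955 CPM in control and 15848 in hypothyroid cells (4.01-fold) and *Cxcl1* at 3309 and 8933 (2.70-fold), whereas *Socs3*, a feedback inhibitor, stood at 430.1 and 190.3 CPM (0.443) and *Lcn2* at 63.2 and 23.3 (0.369). At 14 dpi the median of the list was 1.51 against 0.910 for all genes, and *Lcn2*, at 0.621 and 7.04 CPM, was the gene past 2-fold.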

How the data were processed

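Per the labels and the study's methods, the authors aligned 10x 3′ reads to mm39 with Cell Ranger in Partek Flow, assigned UMIs to GENCODE gene models, and kept cells within limits on UMIs, genes and mitochondrial share, after kits had removed red cells and dead cells before capture. First-run cells reach 49806 UMIs, above the upper UMI limit that the methods state. The deposited values are log2(CPM + 1) of each cell, as the authors normalized them, with a pseudocount of 1. Whole UMIs were recovered here from the step that a cell's commonest nonzero value marks, taken as 1 UMI, which made 99.934% of 39334018 values whole within 0.02 of the count.

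The 6 first runs were used, and the 9062 columns of later runs were treated as being of unknown condition. A cell was gated to the type whose summed marker CPM was the largest share of the level of its 100 highest cells, when that share was at least 10% and at least 2 times the next, with 3 markers detected. Of 87 markers, 84 were measured. The markers were set first, and this scoring rule and the minimum of 15 cells were chosen after looking at the data, since other scores misplaced cells. No doublets were removed. Ungated cells enter sums over all cells only.

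Pools were compared by the ratio of CPM with the exact conditional binomial interval, levels with exact Poisson intervals and shares with Clopper-Pearson intervals, all at 95%. A count of 0 was given as the level that 3 UMIs would make. Code was tested on simulated data. The named genes are the 3 members, the 5 genes with the most similar pattern, and up to 3 genes with the largest ratio either way per list. The members and lists were chosen with earlier results of these data known. *Thra*, *Socs3*, *Pdk4* and *Gpd2* outside FAP-like cells were named in addition, after their values were seen. The states of FAP-like, monocyte/macrophage-like and T/NK-like cells were likewise chosen after values were seen. Some genes that the rule selects are not reported here. The tools were scanpy 1.11.5, scipy 1.17.1, numpy 2.4.6, igraph 0.11.9, matplotlib 3.10.9 and pandas 2.3.3 under Python 3.11.15. The alternatives tried were other scalings, gates, depth cuts, graph clusters and cell sets.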

Additional observations from a re-analysis of the deposited data

Results flagged for a closer look

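*Klf9* in endothelial-like cells went in opposite directions between 5 and 14 dpi in the 2 diets, 0.771-fold in control and 3.04-fold in hypothyroid muscle, so that the steps differed by 3.94 times. With 1 library per group this difference was not tested. It rests on the 31 hypothyroid cells at 5 dpi, and the hypothyroid step was 1.85 without the cells that also stand in another file and 1.15 with all cell columns.

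The later runs of columns, which no comparison above uses, held UMIs of the members in cells that are no copy of first-run cells. These were 28501 UMIs of *Klf9*, 475 of *Hr* and 1868 of *Bcl3*. In the control day 14 file, the second run of 1152 cells stood at 1204 CPM of *Klf9* and 26.5 of *Hr*, and the third, of 1649 cells, at 572 and 7.80. In the hypothyroid day 5 file, the second run of 528 cells stood at 980.2 CPM of *Klf9* and the third, of 1626 cells, at 312. The condition of these cells is unknown.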

How the results depend on the processing

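Each group was 1 library, so the spread between mice is unknown and leaving out a library was not possible. No paired analysis was possible because each group has a single library, and the shared replicate number 1 is only a name. Over 68 results and 740 alternative values, 10 values turned direction. Another 42 values between diets and 67 between days were marked as moved without a turn. The mean of log2(CPM + 1) gave 29 of the moved values and thinned shares gave 25. With the mean over cells of CPM, the FAP-like *Klf9* ratio of the diets was 0.953 at day 0, 0.505 at 5 dpi and 0.914 at 14 dpi, and its steps were 0.417 and 1.53 in control and 0.221 and 2.77 in hypothyroid muscle. With the mean of log2(CPM + 1) it was 0.493 at day 0 and 0.349 at 5 dpi, with steps of 0.233 and 2.06 in control and 5.12 from 5 to 14 dpi in hypothyroid muscle, and *Hr* at 14 dpi was 0.864. Relative to the all-gene median, *Klf9* was 0.593 at 5 dpi and 0.927 at 14 dpi, with steps of 0.356, 1.77 and 0.191, and *Bcl3* was 0.810 at 5 dpi. Without mitochondrial, ribosomal protein and hemoglobin genes in the total, the hypothyroid step of *Klf9* to 5 dpi was 0.181. With all cell columns, *Klf9* was 1.01, 0.541 and 0.800 at the 3 days, with steps of 0.713, 1.25, 0.382 and 1.85, and *Bcl3* at 5 dpi was 1.06. With graph clusters in place of the gate, *Klf9* was 0.439 at 5 dpi, with hypothyroid steps of 0.153 and 3.09. With thinned shares it was 0.908, 0.576 and 0.928, with steps of 0.526, 1.51, 0.333 and 2.44. In non-cycling cells, an alternative chosen after seeing the data, *Klf9* was 0.402 and *Bcl3* 0.510 at 5 dpi. In endothelial-like cells, *Klf9* at 14 dpi was 0.977 with the mean of CPM, 0.864 with the mean log, 0.680 without cells that also stand in another file and 0.908 with graph clusters, its control step from 5 to 14 dpi was 1.001 with all cell columns, and its hypothyroid step to 5 dpi was 1.23 with the mean log. FAP-like genes past 2-fold numbered 827, 1641 and 1074 at the 3 days, became 2401, 4486 and 2779 at 1.5-fold, and 387 at day 0 with at least 50 UMIs. The causes of these shifts were not tested. *Hr* rests on few UMIs outside FAP-like cells, and no pair of pools there reached 20.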

Other observations

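Between days, 5 of 12 KLF genes, *Klf9* included, were lower by at least 2-fold in control FAP-like cells from day 0 to 5 dpi. In hypothyroid muscle 7 of 12 were. The medians were 0.848 and 0.357 against 1.08 and 0.877 for all genes, of which 12.7% and 21.1% were lower by at least 2-fold. *Klf12* (0.329 and 0.139) was the lowest in both. All 4 KDM3 genes, *Hr* included, were lower by at least 2-fold in hypothyroid muscle, among them *Kdm3b* (0.198) and *Jmjd1c* (0.370). In control 3 of 4 were, *Hr* among them, beside the same shares of all genes.

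*Dio3* in FAP-like cells was 45.5-fold from day 0 to 5 dpi in control, on 5 UMIs at day 0, and 0.0469-fold from 5 to 14 dpi. In hypothyroid muscle the same steps were 1.05 (6 and 49 UMIs) and 0.829. *Thrb* was 0.367-fold from day 0 to 5 dpi in control and 0.317-fold in hypothyroid muscle. These values come from 1 library per group and share their day with the batch.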
